A study of Mus musculus with 18 samples.

Results

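The genes described here are 43 mouse genes of DNA damage sensing and repair, taken from a list of names that covers double-strand break repair, the Fanconi pathway, excision and mismatch repair and translesion synthesis. They were found by gene symbol among the 54532 genes of the deposited count table, and all 43 passed the filter on low counts, which left 16257 genes for testing. Expression was measured by RNA sequencing in whole jejunum of mice of the inbred strain C57BL/6, aged 8 to 12 weeks. FLASH mice received 15 Gy to the whole abdomen in 1 fraction at an ultra-high dose rate (7 libraries), CONV mice received the same dose at a conventional rate (5 libraries), and control mice were left without radiation (6 libraries). The jejunum of both irradiated groups was taken 16 h after the dose. Whether 1 mouse gave 1 library is not stated in the labels, and p-values here therefore reflect only how far these libraries vary.

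Cells meet broken or altered DNA with several partly separate systems. Double-strand breaks are sensed by the kinases ATM, ATR and DNA-PK and are closed either by homologous recombination, which copies an intact sister strand and is therefore used mainly in cells that replicate their DNA, or by end joining, which works throughout the cell cycle. The Fanconi pathway opens crosslinks between strands, nucleotide excision repair cuts out bulky lesions, base excision and single-strand break repair handle small base damage and nicks, and translesion polymerases copy past damage that was not removed. In the small intestine most dividing cells sit in the crypts, where many repair genes are known to be expressed with the cell cycle.

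Against control jejunum, FLASH libraries had 20 members lower and 5 higher, while 18 did not pass an adjusted p of 0.05 (edgeR quasi-likelihood test, Benjamini-Hochberg over all genes tested). Of all genes tested, 21.0% were lower and 16.7% higher in this comparison, and the median log2 fold change was -0.54 over the 43 members and -0.07 over all genes. CONV libraries had 9 members lower and 3 higher than controls, with 12.0% of all genes lower and 10.2% higher, and medians of -0.28 over the members and -0.04 over all genes. These comparisons share the same control libraries. Set directly against CONV, FLASH libraries had 8 members lower and 3 higher, with 9.91% of all genes lower and 9.88% higher, and medians of -0.24 over the members and -0.02 over all genes. The share of members that rose was thus below that of all genes in each comparison, and the share that fell was above it, as a description of the list without a test. The list was chosen with earlier results of these data known, so these shares cannot serve as a test of repair genes. The CONV counts leaned on single libraries: 18 members were lower than controls without control 6, and 4 without CONV 2 or without CONV 6. All genes called in that comparison moved the same way, from 3615 to 6493 without control 6, 2171 without CONV 2 and 1869 without CONV 6. In FLASH against CONV, 5 members were lower without CONV 7, and 1 was higher without CONV 6 or without CONV 7. All genes called there went from 3217 to 2524 without CONV 6 and 2171 without CONV 7. Each library's trend with transcript length and GC content was also taken out by an offset. In FLASH against CONV 13 members were then lower, and 3877 genes were called in all, against 3217 without the offset. Of these 13 members 7 were among the 8, and the 6 others were Atr (log2 fold change -0.59), Trp53bp1 (-0.73), Rad54l (-0.93), Fancc (-0.82), Fanci (-0.73) and Prkdc (-1.08).

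**Figure D1:**
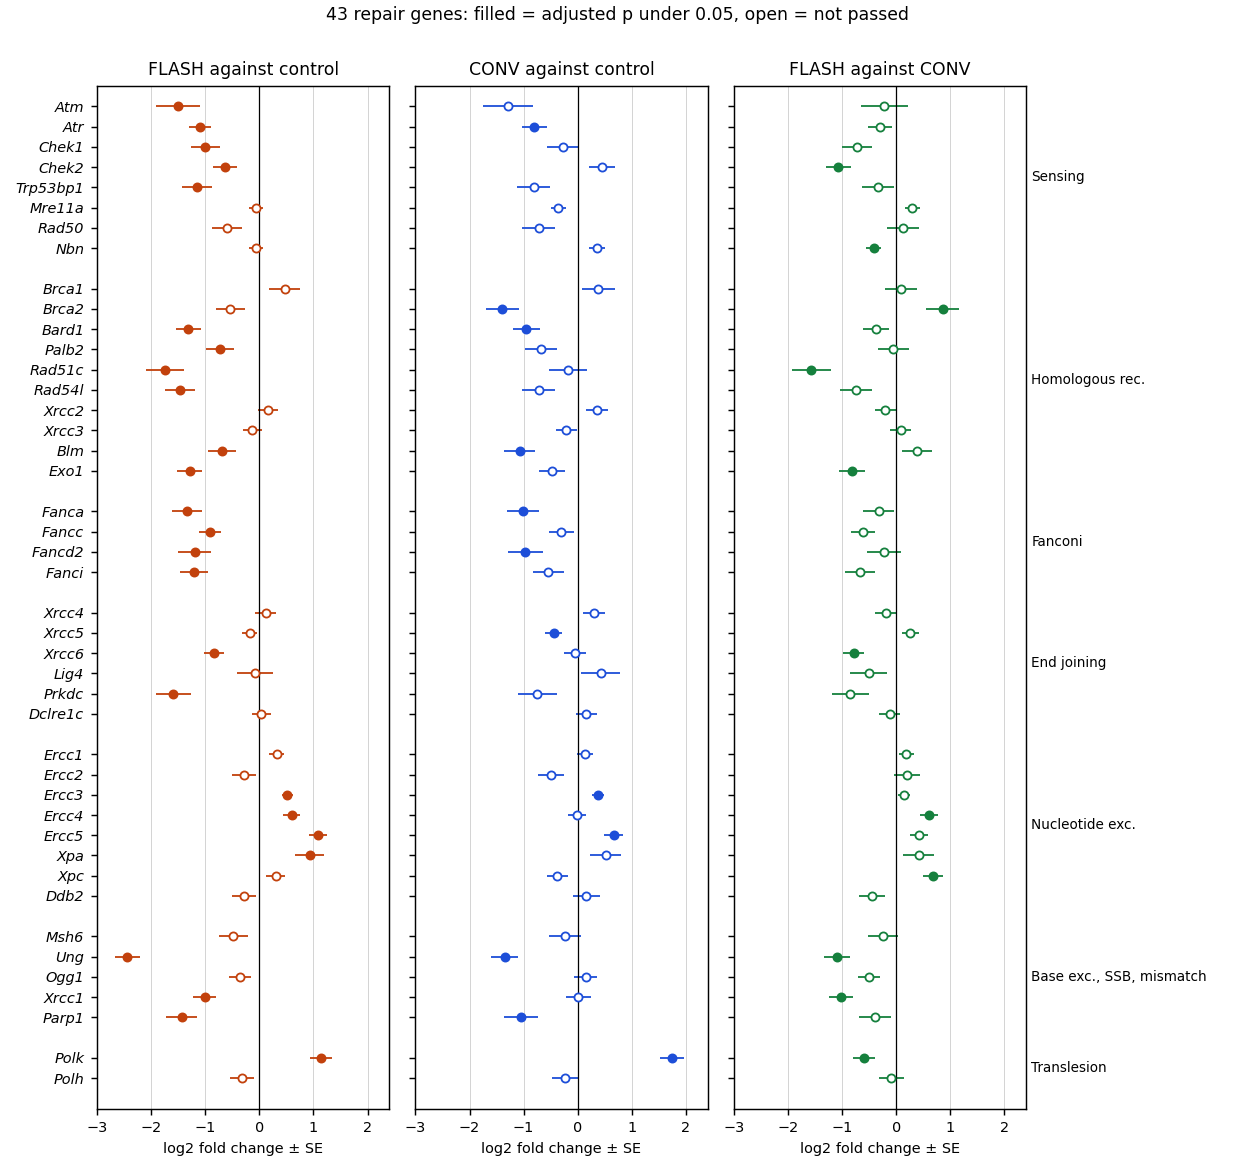
Log2 fold change with its standard error for each of the 43 members in FLASH against control, CONV against control and FLASH against CONV, with genes grouped by branch from top to bottom. Filled points passed an adjusted p of 0.05: 20 members lie to the left and 5 to the right in FLASH against control, 9 and 3 in CONV against control, and 8 and 3 in FLASH against CONV.

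Lower calls were spread over 5 branches. All 4 Fanconi genes fell in FLASH against control, as did 5 of 8 sensing genes, 6 of 10 genes of homologous recombination, 3 of 5 of base excision, single-strand break and mismatch repair and 2 of 6 of end joining, beside 21.0% of all genes. Of the other repair genes of the same branches, 3 of 11 in the Fanconi pathway, 4 of 13 in sensing and 5 of 17 in recombination were lower there. In base excision, single-strand break and mismatch repair 4 of 15 others were lower. In end joining 3 of 7 others were lower, a larger share than that of the members. In nucleotide excision repair 0 of 8 members fell and 4 rose, and of the 2 translesion polymerases 1 rose, beside 16.7% of all genes. The 16 other nucleotide excision genes were mixed, with 4 lower and 3 higher in FLASH against control. CONV against control gave lower calls in 1 sensing, 3 recombination, 2 Fanconi, 1 end joining and 2 base excision genes, and higher calls in 2 nucleotide excision genes and 1 translesion polymerase. Lower there, beside 12.0% of all genes, were 0 of the 11 other Fanconi and 0 of the 17 other recombination genes. The same held for 0 of the 7 other end joining, 2 of the 13 other sensing and 3 of the 15 other base excision genes. Whether the branches differ beyond their small numbers of genes was not tested.

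**Figure D2:**
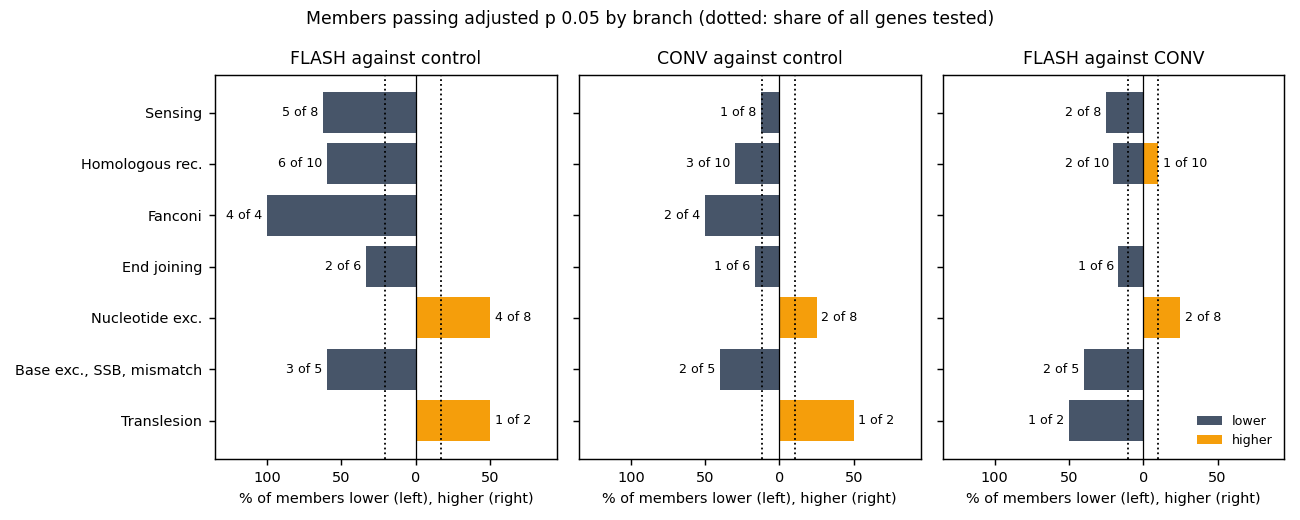
Percentage of the members of each branch that passed an adjusted p of 0.05, lower to the left and higher to the right, for the 3 comparisons; labels give the number called of the number in the branch, and dotted lines give the share of all genes tested in that direction. In FLASH against control 4 of 4 Fanconi genes lie on the lower side and 4 of 8 nucleotide excision genes on the higher side.

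Library totals were 19.9 to 30.2 M estimated counts. The epithelial markers Epcam, Cdh1, Krt8, Krt19 and Vil1 were present in every library, with a summed level of 7449 to 9766 CPM (counts divided by the effective size of the library) in FLASH, 5891 to 7511 in CONV and 6342 to 10010 in controls. Of 10 markers of proliferating cells 8 were lower in FLASH and 5 in CONV than in controls, and 0 were at 0 counts. Their sum was 132 to 274 CPM in FLASH, 154 to 226 in CONV and 238 to 485 in controls. All 6 markers of B and plasma cells were lower in FLASH and 3 of 6 in CONV, with sums of 724 to 1901, 518 to 1759 and 4762 to 9993 CPM in FLASH, CONV and control libraries. All 6 crypt base stem cell markers were lower in FLASH and 5 of 6 in CONV, with sums of 90.2 to 195, 79.9 to 217 and 715 to 1258 CPM in FLASH, CONV and control libraries. Of 7 absorptive enterocyte markers 5 were higher in FLASH and 4 in CONV. Smooth muscle markers were lower in 6 of 6 in FLASH and 3 of 6 in CONV, those of macrophages and dendritic cells in 5 of 6 in each, and those of T and NK cells in 4 of 6 in each. Of 5 endothelial markers 1 was lower in FLASH and 0 in CONV, and of the 5 epithelial markers 0 in FLASH and 1 in CONV. The part of these shifts in the repair genes was not tested, and in whole tissue fewer cells of a type and less RNA per cell cannot be told apart. Libraries also differed in how expression followed transcript length: FLASH 1, CONV 6 and control 6 had the most negative slopes of their groups (-0.27, -0.35 and -0.33). The slopes differed between groups as well. The remaining CONV libraries had -0.27 (CONV 2), -0.175 (CONV 7), 0.02 (CONV 3) and 0.03 (CONV 5). The remaining controls had -0.01 to 0.27 and the remaining FLASH libraries -0.07 to 0.22. A fit without FLASH 1, CONV 6 and control 6 kept CONV 2 and CONV 7. In that fit FLASH against control had 21 members lower and 6 higher, CONV against control 12 and 3, and FLASH against CONV 7 and 2. All genes called rose there too, to 7198, 5288 and 3840, against 6135, 3615 and 3217 with all libraries.

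Of the 43 members, 10 passed in the same direction against controls in both irradiated groups. Polk, Ercc3 and Ercc5 were higher than controls in FLASH and in CONV, and Ung, Atr, Bard1, Blm, Fanca, Fancd2 and Parp1 were lower in both. Xrcc5 and Brca2 were called lower in CONV and not in FLASH, and 13 members, among them Atm, Chek1, Rad51c, Exo1, Prkdc, Xrcc6 and Xrcc1, were called lower in FLASH and not in CONV. For 5 of these 13 (Chek2, Rad51c, Exo1, Xrcc6 and Xrcc1) FLASH was also lower than CONV in the direct test, and for the other 8 that difference did not pass. Both comparisons with controls used the same control libraries, and 6135 genes in FLASH and 3615 in CONV were called in all. The same patterns were not counted over all genes, so these numbers cannot tell repair genes from other genes.

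The stretches just upstream of the start of 4 of these genes are shown because they rose (Ercc5, Polk) or fell (Ung, Bard1) in both irradiated groups, and they were the members of each direction with the smallest p in FLASH against control that had a promoter in the RefSeq table (build GRCm38.p6). They are Ercc5 chr1:44147494-44147743 on the plus strand, Polk chr13:96542580-96542829 on the minus strand, Ung chr5:114130185-114130385 on the plus strand and Bard1 chr1:71103147-71103222 on the minus strand, each written 5′ to 3′ and ending just before the gene's start in the GENCODE annotation. Capitals mark matches on either strand to an E2F site (TTTCCCGC or TTTGGCGC), a p53 half-site, a CCAAT box with exactly these letters, or the element named CHR that many promoters of cell cycle genes share, searched as TTTGAA. Matches to different motifs do not overlap in these stretches. In mm10 the genes span chr1:44147744-44181260 (Ercc5), chr13:96480690-96542579 (Polk), chr5:114130386-114139323 (Ung) and chr1:71027498-71103146 (Bard1).
Ercc5: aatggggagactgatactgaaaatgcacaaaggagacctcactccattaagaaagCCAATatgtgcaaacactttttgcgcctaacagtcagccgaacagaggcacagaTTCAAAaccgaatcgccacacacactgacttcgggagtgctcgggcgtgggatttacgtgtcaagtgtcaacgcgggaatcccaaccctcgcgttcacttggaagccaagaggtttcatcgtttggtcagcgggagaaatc
Polk: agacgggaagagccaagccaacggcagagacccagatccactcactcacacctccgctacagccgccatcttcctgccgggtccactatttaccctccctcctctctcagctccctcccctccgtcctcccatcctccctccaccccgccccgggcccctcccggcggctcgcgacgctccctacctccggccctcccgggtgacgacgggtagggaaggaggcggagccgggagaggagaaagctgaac
Ung: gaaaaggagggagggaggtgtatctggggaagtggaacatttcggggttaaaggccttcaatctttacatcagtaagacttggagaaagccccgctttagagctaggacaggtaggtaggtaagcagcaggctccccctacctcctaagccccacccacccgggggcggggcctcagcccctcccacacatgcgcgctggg
Bard1: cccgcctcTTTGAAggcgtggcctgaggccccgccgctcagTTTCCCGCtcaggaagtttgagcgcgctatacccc
Ercc5 held 1 CHR match on the minus strand and 1 CCAAT box, and Bard1 held 1 E2F match, 28 to 35 bases before its start, and 1 CHR match on the plus strand, while these letters were not found in the stretches of Polk and Ung. Of 32841 windows, each the 250 bases before a RefSeq start, 1.3% held the E2F letters, 16.0% CHR, 33.9% a CCAAT box and 7.13% a p53 half-site. Promoters were found for 34 members in 38 windows, and of these windows 4 held the E2F letters (Bard1, Brca2, Chek2 and Xrcc6), 2 CHR, 19 a CCAAT box and 2 a p53 half-site (Fanca and a second, internal window of Polk). The Xrcc6 window (chr15:82016119-82016368) is also internal, since the gene spans chr15:81987835-82040085 on the plus strand. Rad50, Nbn, Xrcc2, Exo1, Fancd2, Prkdc, Ercc3, Xpc and Ddb2 had no entry.

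Among the sensors, the lower calls in FLASH against control were those of Atm, Atr, Chek1, Chek2 and Trp53bp1, while Mre11a, Rad50 and Nbn, whose complex binds broken ends and recruits ATM, did not pass. Fold changes are given on the log2 scale with their standard error, and CONV values in the order of CONV 2, 3, 5, 6 and 7. Atr, the kinase activated by single-stranded DNA at stalled forks, had 4.23 to 6.11 CPM in FLASH libraries (median 4.86). CONV libraries had 3.77, 8.79, 6.18, 5.55 and 7.20 CPM, and control libraries 5.84 to 14.4 CPM (median 11.5). Every FLASH library but 2 lay below the lowest control, and CONV overlapped controls through control 6. The fold change was -1.10 ± 0.21 in FLASH against control (adjusted p = 0.000434) and -0.80 ± 0.23 in CONV against control (adjusted p = 0.0183). In CONV the call rested on single libraries, since the adjusted p was 0.0545 to 0.0554 without CONV 2 or without CONV 6, and it ended with the length and GC offset (-0.24, adjusted p = 0.266). Atm, the kinase that answers double-strand breaks, had 1.204 to 6.96 CPM in FLASH libraries (median 3.73). CONV libraries had 2.20, 6.94, 5.96, 1.85 and 4.68 CPM, and control libraries 2.96 to 15.8 CPM (median 12.0). Control 6 lay far below the other 5 controls, at the level of the irradiated libraries, and the fold change was -1.50 ± 0.41 in FLASH (adjusted p = 0.00816) and -1.29 ± 0.46 in CONV (adjusted p = 0.0505), just short of the threshold. Chek1, the effector kinase of ATR, had a fold change of -0.995 ± 0.26 in FLASH against control (adjusted p = 0.00608), and Trp53bp1, which steers breaks towards end joining, one of -1.15 ± 0.28 (adjusted p = 0.00381).

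Chek2, the effector kinase of ATM, was lower in FLASH than in CONV, though the groups overlapped through FLASH 4 (12.6 CPM) and CONV 5 (11.4 CPM). It had 3.67 to 12.6 CPM in FLASH libraries (median 6.58). CONV libraries had 14.3, 14.2, 11.4, 19.8 and 16.0 CPM, and control libraries 9.68 to 12.4 CPM (median 11.2). Of 7 FLASH libraries 6 lay below every control and FLASH 4 above every control, while 4 of 5 CONV libraries lay above the highest control. Its fold change was -1.07 ± 0.23 in FLASH against CONV (adjusted p = 0.00433), -0.63 ± 0.22 in FLASH against control (adjusted p = 0.0329) and 0.44 ± 0.24 in CONV against control (adjusted p = 0.179). The lower call against control ended when any of 7 libraries was left out (adjusted p 0.0534 to 0.0689 without control 1, 2 or 5 or FLASH 1, 2, 6 or 7), and the call against CONV held in every alternative run. In the MRE11 complex, Nbn had 9.84 to 16.5 CPM in FLASH libraries (median 12.4). CONV libraries had 16.8, 17.9, 19.1, 17.1 and 16.8 CPM, and control libraries 12.1 to 16.0 CPM (median 13.5), with every CONV library above every control and every FLASH library below every CONV library. Its fold change was -0.41 ± 0.14 in FLASH against CONV (adjusted p = 0.0414), which did not pass when any of 10 libraries was left out (CONV 2, 3, 5, 6 or 7 or FLASH 1, 2, 5, 6 or 7; adjusted p 0.0563 to 0.0859) and was -0.19 with the length and GC offset. Mre11a and Rad50 passed in 0 of the 3 comparisons, with fold changes of -0.06 ± 0.13 and -0.59 ± 0.28 in FLASH against control.

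In homologous recombination 6 of 10 members were lower in FLASH. Rad51c, a gene of homologous recombination, had 0.178 to 0.705 CPM in FLASH libraries (median 0.214). CONV libraries had 1.26, 1.26, 1.30, 0.813 and 0.887 CPM, and control libraries 0.839 to 1.83 CPM (median 1.22). All 7 FLASH libraries lay below all others, from 61 estimated counts over the whole group, against 138 in CONV and 225 in controls. The log2 difference was -1.74 ± 0.34 in FLASH against control (adjusted p = 0.000685), -0.17 ± 0.35 in CONV against control (adjusted p = 0.732) and -1.57 ± 0.36 in FLASH against CONV (adjusted p = 0.00598). Exo1, the nuclease that trims the broken ends, had 1.28 to 3.88 CPM in FLASH libraries (median 2.43). CONV libraries had 2.93, 4.36, 4.06, 4.65 and 5.57 CPM, and control libraries 4.45 to 7.41 CPM (median 6.00). Its FLASH libraries lay below all controls, and the fold change was -1.29 ± 0.23 against control (adjusted p = 0.000246) and -0.81 ± 0.24 against CONV (adjusted p = 0.0214, or 0.0695 without CONV 7). Rad54l, a motor protein that acts in strand exchange, had 1.36 to 4.89 CPM in FLASH libraries (median 2.63). CONV libraries had 2.67, 5.48, 4.28, 4.61 and 6.67 CPM, and control libraries 5.11 to 9.88 CPM (median 8.04). FLASH did not overlap controls for this gene, and the fold change was -1.47 ± 0.28 (adjusted p = 0.000579) against -0.72 ± 0.31 in CONV against control (adjusted p = 0.092).

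Of the BRCA genes and their partners, Bard1 and Palb2 were lower in FLASH and Brca1 and Brca2 did not pass there. Bard1, the partner of BRCA1, had 1.50 to 2.31 CPM in FLASH libraries (median 1.94). CONV libraries had 1.73, 3.17, 2.68, 1.94 and 2.98 CPM, and control libraries 2.37 to 6.90 CPM (median 4.64). Every FLASH library was below every control, and the fold change was -1.32 ± 0.23 in FLASH (adjusted p = 0.000253) and -0.95 ± 0.25 in CONV (adjusted p = 0.0138). Brca2, which acts on resected ends, had 2.51 to 5.18 CPM in FLASH libraries (median 2.75). CONV libraries had 0.838, 2.09, 2.09, 1.49 and 2.24 CPM, and control libraries 1.86 to 6.56 CPM (median 4.97). All FLASH libraries were above all CONV libraries, and the fold change was -1.39 ± 0.31 in CONV against control (adjusted p = 0.00456), -0.54 ± 0.27 in FLASH against control (adjusted p = 0.128) and 0.86 ± 0.30 in FLASH against CONV (adjusted p = 0.0499). That last call sat at the threshold and ended when any library but FLASH 4 was left out (adjusted p 0.0525 to 0.126). Brca1 had a fold change of 0.47 ± 0.28 in FLASH and 0.38 ± 0.30 in CONV against control and did not pass. Blm, a helicase that dissolves joined strands, was lower in CONV (-1.07 ± 0.29, adjusted p = 0.0142) and in FLASH (-0.69 ± 0.26, adjusted p = 0.0418). In FLASH the Blm call ended without any of 7 libraries (control 1, 2 or 5 or FLASH 4, 5, 6 or 9; adjusted p 0.0784 to 0.129), and so did that of Palb2, the bridge between BRCA1 and BRCA2 (-0.73 ± 0.26, adjusted p = 0.0363; 0.0539 to 0.109 without control 1, 2 or 5 or FLASH 1, 5, 6 or 9). Over 24 alternatives the Palb2 call in FLASH was lost in 11. That of Blm was lost in 13, among them the length and GC offset and the replicate block. Xrcc2 and Xrcc3, which also act in homologous recombination, passed in 0 comparisons, at 0.16 ± 0.19 and -0.13 ± 0.18 in FLASH against control.

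In the Fanconi pathway, Fanca, a member of the core complex, had 0.811 to 3.35 CPM in FLASH libraries (median 2.53). CONV libraries had 2.304, 3.03, 2.57, 2.53 and 2.70 CPM, and control libraries 3.36 to 6.73 CPM (median 5.43). Neither irradiated group overlapped controls, and the fold change was -1.34 ± 0.27 in FLASH (adjusted p = 0.000911) and -1.02 ± 0.30 in CONV (adjusted p = 0.0225). Without CONV 2 or CONV 6 the adjusted p in CONV was 0.0572 to 0.0587, and with the length and GC offset the fold change there was -0.58 (adjusted p = 0.0885). Fancd2 and Fanci, the paired proteins that the core complex marks with ubiquitin, had fold changes of -1.20 ± 0.30 and -1.21 ± 0.27 in FLASH against control (adjusted p = 0.00427 and 0.00165). In CONV, Fancd2 passed (-0.97 ± 0.33, adjusted p = 0.0418) but not without any of 7 libraries (control 1, 2, 4 or 5 or CONV 2, 6 or 7; 0.0538 to 0.106), and Fanci did not pass (-0.54 ± 0.29, adjusted p = 0.167). The Fancd2 call in CONV was lost in 11 of 22 alternatives, among them the length and GC offset. Fancc, also of the core complex, had 1.42 to 3.79 CPM in FLASH libraries (median 2.93). CONV libraries had 2.93, 4.60, 4.10, 4.42 and 4.51 CPM, and control libraries 3.80 to 6.06 CPM (median 5.04), with FLASH below every control and a fold change of -0.91 ± 0.21 (adjusted p = 0.00248). FLASH and CONV were not called different for any Fanconi member, with fold changes from -0.66 to -0.23. For Fancc (-0.61, adjusted p = 0.0588) the call was gained in 6 of 23 alternatives, and for Fanci in 1, the length and GC offset (-0.73, adjusted p = 0.0457).

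End joining was split. Prkdc, the catalytic kinase subunit of DNA-PK, had 1.24 to 5.33 CPM in FLASH libraries (median 2.73). CONV libraries had 4.45, 7.78, 6.33, 3.48 and 4.90 CPM, and control libraries 4.38 to 12.7 CPM (median 10.2). FLASH overlapped controls only through control 6 with its 4.38 CPM, and the fold change was -1.59 ± 0.32 (adjusted p = 0.000909), against -0.74 ± 0.35 in CONV against control (adjusted p = 0.126). Of the Ku proteins that bind the broken ends, Xrcc6 (Ku70) had 7.003 to 18.01 CPM in FLASH libraries (median 9.75). CONV libraries had 15.0, 22.4, 19.2, 17.5 and 20.2 CPM, and control libraries 16.8 to 22.0 CPM (median 19.5). Of 7 FLASH libraries 6 lay below every CONV and control library, and FLASH 4 was within both. Its fold change was -0.83 ± 0.19 against control (adjusted p = 0.00196) and -0.78 ± 0.19 against CONV (adjusted p = 0.00954). The partner Xrcc5 (Ku80) was called in CONV against control alone (-0.44 ± 0.16, adjusted p = 0.0474), a call lost without any of 8 libraries (control 1 to 5 or CONV 2, 6 or 7; 0.0574 to 0.116), while the fold change was -0.84 with the length and GC offset. The ligase gene Lig4 and its scaffold Xrcc4, and the end-processing nuclease Dclre1c (Artemis), did not pass in any comparison, with -0.08 ± 0.33, 0.12 ± 0.19 and 0.04 ± 0.18 in FLASH against control.

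**Figure D3:**
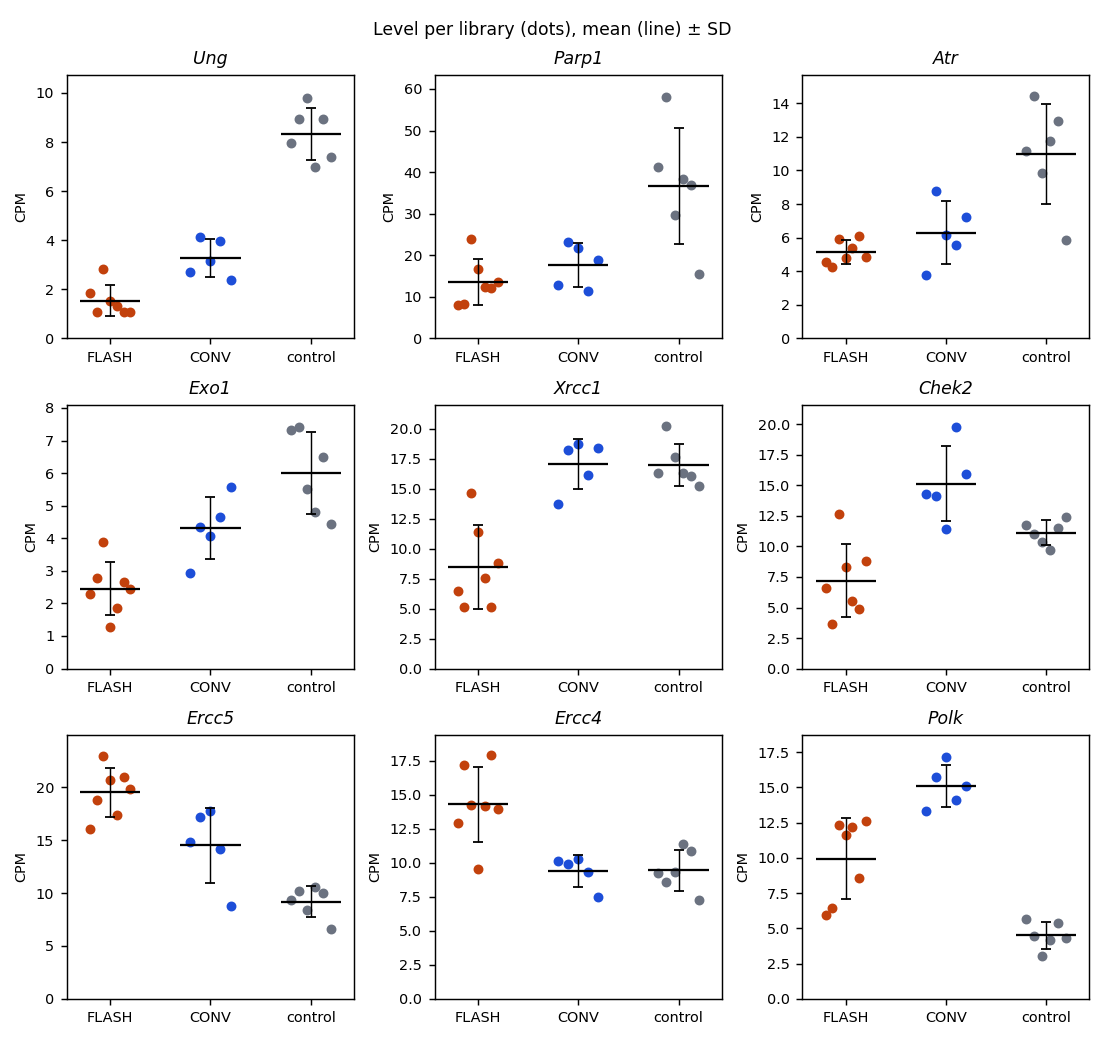
CPM of 9 members in each FLASH, CONV and control library (dots), with group means (lines) and standard deviations (bars), on axes that start at 0. Ung, Exo1 and Xrcc1 lie below all controls in FLASH, Ercc5 and Polk lie above all controls in FLASH, and 4 of 5 CONV libraries lie above all controls for Chek2.

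Nucleotide excision repair held 4 of the 5 higher calls of members in FLASH against control. The 16 other genes of the branch went both ways, with 4 lower and 3 higher against control (median log2 fold change 0.11), and 4 lower and 1 higher against CONV (-0.26). The summed level of its 8 members was 129 to 139 CPM in FLASH, 90.0 to 118 CPM in CONV and 89.0 to 99.1 CPM in controls, so that FLASH lay above every other library. Ercc5 (XPG), the nuclease that cuts 3′ of the lesion, had 16.1 to 23.0 CPM in FLASH libraries (median 19.8). CONV libraries had 14.8, 17.2, 17.7, 14.2 and 8.80 CPM, and control libraries 6.61 to 10.6 CPM (median 9.67). All FLASH libraries were above all controls, and CONV overlapped controls through CONV 7 alone. This gave a fold change of 1.09 ± 0.16 in FLASH (adjusted p = 5.53e-05) and 0.66 ± 0.17 in CONV (adjusted p = 0.0122). Ercc3 (XPB), a helicase of the TFIIH complex that also opens promoters for transcription, had 43.2 to 56.2 CPM in FLASH libraries (median 50.1). CONV libraries had 45.3, 44.7, 49.7, 49.8 and 41.0 CPM, and control libraries 30.3 to 39.7 CPM (median 35.8). Neither irradiated group overlapped controls, with 0.52 ± 0.10 in FLASH (adjusted p = 0.000631) and 0.37 ± 0.11 in CONV (adjusted p = 0.0221). In CONV the Ercc3 call ended without control 1, control 2 or CONV 6 (adjusted p 0.0533 to 0.0665). It was lost in 8 of 22 alternatives, among them the length and GC offset, library totals and the replicate block.

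Ercc4 (XPF), the nuclease that cuts 5′ of the lesion, was higher in FLASH than in both other groups. It had 9.56 to 17.9 CPM in FLASH libraries (median 14.2). CONV libraries had 10.1, 9.87, 10.2, 9.30 and 7.45 CPM, and control libraries 7.23 to 11.4 CPM (median 9.27). Of 7 FLASH libraries 6 were above every control and every CONV library, and CONV lay within the control range. The change was 0.60 ± 0.15 in FLASH against control (adjusted p = 0.00545), -0.01 ± 0.17 in CONV against control (adjusted p = 0.978) and 0.60 ± 0.16 in FLASH against CONV (adjusted p = 0.0154, or 0.0513 without CONV 7). The call against CONV was lost in 6 of 23 alternatives, among them the length and GC offset and the replicate block. Xpc, which recognises lesions across the genome, had 10.8 to 16.8 CPM in FLASH libraries (median 14.1). CONV libraries had 8.22, 9.73, 10.6, 5.82 and 7.87 CPM, and control libraries 6.46 to 13.1 CPM (median 12.0). FLASH lay above CONV without overlap (0.68 ± 0.19, adjusted p = 0.0178, or 0.0512 without CONV 6), and neither group passed against controls (0.30 ± 0.18 and -0.38 ± 0.19). Xpa, the scaffold of the incision complex, had 10.3 to 22.1 CPM in FLASH libraries (median 12.8). CONV libraries had 14.5, 8.65, 9.12, 15.6 and 5.82 CPM, and control libraries 4.44 to 13.4 CPM (median 7.24). FLASH 1, CONV 6 and control 6, which had the most negative slopes with transcript length in their groups, had the highest Xpa there. The fold change of Xpa was 0.93 ± 0.27 in FLASH (adjusted p = 0.0128) and 0.51 ± 0.29 in CONV (adjusted p = 0.202). Ercc1, the partner of XPF, Ercc2 (XPD), the second TFIIH helicase, and Ddb2, which binds ultraviolet damage in chromatin, did not pass, at 0.32 ± 0.13, -0.29 ± 0.22 and -0.28 ± 0.23 in FLASH against control.

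These rises depend on the scale. With library totals in place of TMM scaling the all-gene median (log2 fold change) moved to -0.44 in FLASH against control, -0.25 in CONV against control and -0.18 in FLASH against CONV. The share of called genes that were higher went to 17.4, 24.2 and 24.4%, against 44.3, 46.0 and 49.9% with TMM. Ercc5 and Polk remained higher in FLASH against control on that scale, at 0.71 and 0.77, while Ercc3 (0.14, adjusted p = 0.238), Ercc4 (0.23, adjusted p = 0.277) and Xpa (0.57, adjusted p = 0.0521) did not pass but kept their sign. In CONV against control Ercc5 (0.45, adjusted p = 0.101) and Ercc3 (0.16, adjusted p = 0.287) did not pass there, nor did Ercc4 (0.45, adjusted p = 0.079), Xpc (0.51, adjusted p = 0.116) and Brca2 (0.68, adjusted p = 0.145) in FLASH against CONV. On the same scale 31 members were lower in FLASH against control and the median over the 43 members was -0.93. All genes called in that comparison numbered 7931 on this scale, 17.4% of them higher, against 6135 with TMM.

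The largest fold change of any member in FLASH against control was that of Ung, the uracil-DNA glycosylase that starts base excision repair of uracil and that also acts in antibody class switching in B cells. It had 1.07 to 2.82 CPM in FLASH libraries (median 1.30). CONV libraries had 2.72, 4.12, 3.16, 3.97 and 2.38 CPM, and control libraries 6.96 to 9.79 CPM (median 8.43). Every irradiated library lay below every control, and FLASH 4 was the only FLASH library inside the CONV range. The test gave a fold change of -2.44 ± 0.23 in FLASH against control (adjusted p = 6.95e-07), -1.35 ± 0.25 in CONV against control (adjusted p = 0.00123) and -1.10 ± 0.24 in FLASH against CONV (adjusted p = 0.00442), and all 3 calls held in every alternative run. The 6 markers of B and plasma cells and 8 of 10 markers of proliferating cells were also lower in FLASH against control, as were markers of smooth muscle, macrophages and T cells, and their part in the level of Ung was not tested. Parp1, which detects strand breaks and makes poly(ADP-ribose), had 8.03 to 23.8 CPM in FLASH libraries (median 12.4). CONV libraries had 12.8, 23.3, 21.8, 11.5 and 18.9 CPM, and control libraries 15.6 to 58.0 CPM (median 37.6). It overlapped controls in both irradiated groups, where control 6 was lowest, and the fold change was -1.44 ± 0.28 in FLASH (adjusted p = 0.00071) and -1.05 ± 0.31 in CONV (adjusted p = 0.0236). The call in CONV ended without control 2, CONV 2 or CONV 6 (adjusted p 0.0591 to 0.0757).

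Xrcc1, the scaffold of single-strand break repair, had 5.12 to 14.6 CPM in FLASH libraries (median 7.58). CONV libraries had 13.8, 18.3, 18.8, 16.1 and 18.4 CPM, and control libraries 15.2 to 20.2 CPM (median 16.3). CONV overlapped controls, while FLASH lay below every control, and 6 of 7 FLASH libraries were below every CONV library. The fold change was -1.01 ± 0.21 in FLASH against control (adjusted p = 0.00112), 0.01 ± 0.23 in CONV against control (adjusted p = 0.978) and -1.02 ± 0.22 in FLASH against CONV (adjusted p = 0.00421), the last of which held in every alternative run. The glycosylase gene Ogg1, which removes oxidised guanine, and the mismatch sensor Msh6 did not pass, with -0.36 ± 0.20 and -0.48 ± 0.27 in FLASH against control.

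Polk, the translesion polymerase kappa, had the largest rise of any member in both irradiated groups. It had 5.98 to 12.6 CPM in FLASH libraries (median 11.6). CONV libraries had 13.4, 15.8, 17.1, 14.1 and 15.1 CPM, and control libraries 3.03 to 5.69 CPM (median 4.39). The 3 groups did not overlap, with CONV above FLASH and FLASH above controls. Its fold change was 1.74 ± 0.21 in CONV against control (adjusted p = 3.31e-05), 1.14 ± 0.20 in FLASH against control (adjusted p = 0.000246) and -0.60 ± 0.20 in FLASH against CONV (adjusted p = 0.0436). The last call ended when any of 8 libraries was left out (CONV 2, 3, 5, 6 or 7 or FLASH 1, 2 or 7; adjusted p 0.0598 to 0.089). Polh, the polymerase that copies past ultraviolet damage, did not pass (-0.32 ± 0.22 in FLASH and -0.23 ± 0.24 in CONV against control).

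**Figure D4:**
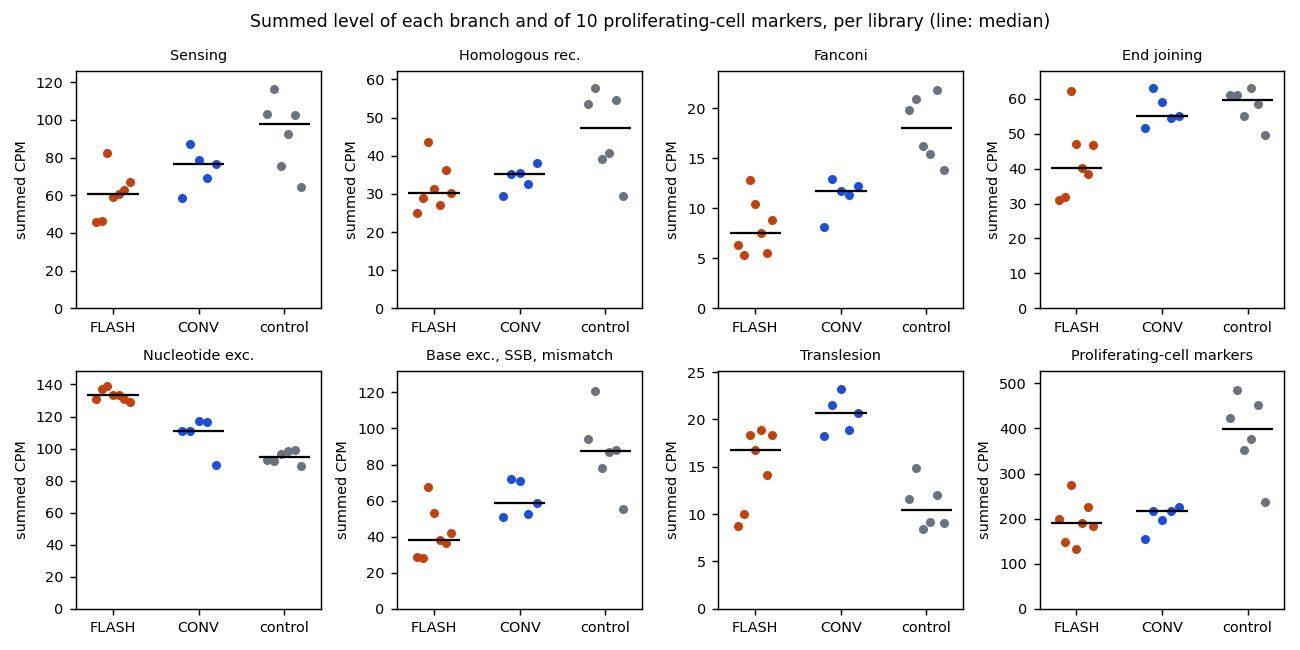
Summed CPM of the members of each branch and of 10 proliferating-cell markers in each FLASH, CONV and control library (dots), with group medians (lines), on axes that start at 0. With TMM-scaled library sizes, the nucleotide excision sum of every FLASH library exceeds all CONV and control libraries. On the same scale the Fanconi sum of every FLASH library (5.38 to 12.8 CPM) and every CONV library (8.12 to 12.9 CPM) lies below every control (13.8 to 21.8 CPM).

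Per transcript length, Ercc3 was the most abundant member in control jejunum at 29.8 ± 3.45 TPM (a level scaled by gene length; SD, n = 6), and Rad51c the least at 0.679 ± 0.21 TPM. Parp1 averaged 5.25 TPM in FLASH, 7.20 TPM in CONV and 16.7 ± 6.91 TPM in controls, next to Ercc3 in the control order. Nbn, Msh6 and Xrcc6 followed Parp1 in controls with 12.8 ± 1.86, 10.6 ± 4.28 and 10.3 ± 1.43 TPM, and whether these levels differ was not tested.

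Of 84 other repair genes of the same branches, 25 were lower and 9 higher in FLASH against control, 5 lower and 7 higher in CONV against control, and 15 lower and 7 higher in FLASH against CONV. As shares these were 29.8% lower and 10.7% higher in FLASH against control, beside 21.0% and 16.7% of all genes and 46.5% and 11.6% of the 43 members. In CONV against control 5.95% were lower and 8.33% higher, below the 12.0% and 10.2% of all genes, while 20.9% of the members were lower. In FLASH against CONV 17.9% were lower and 8.33% higher, beside 9.91% and 9.88% of all genes and 18.6% and 6.98% of the members. Mad2l2, Rev1 and Rmi2 were among those with the smallest p in FLASH against control. Mad2l2, which limits end resection and is a subunit of polymerase zeta, averaged 23.1 ± 5.14 CPM in FLASH, 11.6 ± 3.23 CPM in CONV and 5.67 ± 1.16 CPM in controls (SD, n = 7, 5 and 6), and its fold change was 2.02 ± 0.20 in FLASH, 1.03 ± 0.21 in CONV and 0.99 ± 0.20 between them. Rev1, the scaffold on which translesion polymerases gather, averaged 13.6 ± 2.29, 16.1 ± 2.17 and 5.86 ± 1.06 CPM in FLASH, CONV and control libraries, with 1.21 ± 0.15 in FLASH and 1.45 ± 0.16 in CONV against control. Rmi2, a partner of the BLM helicase, averaged 0.330 ± 0.293, 1.47 ± 0.626 and 3.19 ± 0.622 CPM in FLASH, CONV and control libraries, with -3.27 ± 0.43 in FLASH against control and -2.17 ± 0.44 in FLASH against CONV. In CONV the glycosylase gene Neil3 (-1.55 ± 0.28) and the checkpoint mediator Clspn (-1.83 ± 0.38) were also among the smallest p, and in FLASH against CONV the resection factor Rbbp8 was higher (0.83 ± 0.18, adjusted p = 0.00388).

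Exons of 16 members overlap exons of an expressed gene on the opposite strand, such as Rad54l with Lrrc41, Trp53bp1 with Tubgcp4, Fanci with Polg, Fanca with Zfp276 and Xrcc6 with Desi1. The library kit keeps strand, but whether the counting used it is not given in the sources used here, so the values of these members could hold reads of their neighbours.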

How the data were processed

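Libraries were made from 250 ng of RNA with a stranded mRNA ligation kit and read as single ends of 100 bases, per the labels. Per the submitters' processing notes, the tools were STAR and Salmon (versions not given in the sources used here), edgeR 3.40.2 and limma 3.54.2, on mm10. The authors deposited expected counts (unscaled estimates of reads per Ensembl gene) for 54532 genes and log2 values, normalized by the authors, for 19193 genes. Totals were 19.9 to 30.2 M.

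Estimated counts were rounded and tested by quasi-likelihood in edgeR 4.0.16 under R 4.3.3 (filterByExpr, TMM scaling, robust dispersion) with 18 libraries in 1 fit, and p-values were adjusted by Benjamini-Hochberg over 16257 genes (threshold 0.05). CPM use TMM-scaled library sizes. The standard error of a log2 fold change is its absolute value over the square root of the F statistic. TPM use the exon length of each gene in the GENCODE annotation and are a description. Replicate numbers do not mark shared mice in the labels and were not used as a block. Alternatives were DESeq2 1.42.0 and its size factors, library totals, other filters, limma-trend (limma 3.58.1) on the authors' log2 values, only the groups compared, a replicate block, removal of each library's trend with transcript length and GC content by an offset, leaving out control 6, CONV 6 and FLASH 1, and leaving out each library. The fit was tested on simulated data with 100 genes changed 2-fold and 100 changed 4-fold. In FLASH against control it recovered 47 and 87 of them, with 9 false calls. In FLASH against CONV it recovered 44 and 88, with 7 false calls. A member that did not pass is therefore not shown to be unchanged.

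All members could be named. Of the 84 other repair genes, up to 4 per comparison with the smallest p were named. A result that would have been named by this rule is not reported here. Members and lists were chosen with earlier results of these data known. Promoters came from RefSeq. Python 3.11.15, pandas 2.3.3 and matplotlib 3.10.9 made tables and figures.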

Additional observations from a re-analysis of the deposited data

Results flagged for a closer look

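Of 129 sets of values (43 members in 3 groups), 8 had a library set apart from the rest of its group by Dixon's criterion at the 95% level, where chance gives about 1 in 20. FLASH 4 had 4.45 CPM of Chek1 (other FLASH libraries 1.61 to 2.77) and 3.35 CPM of Fancd2 (others 1.11 to 1.91). FLASH 7 had 5.18 CPM of Brca2 (others 2.51 to 3.65), and FLASH 1 had 22.1 CPM of Xpa (others 10.3 to 15.2). CONV 7 had 3.83 CPM of Blm (others 1.99 to 2.46). Ddb2 was high in CONV 6 (7.95 CPM, others 3.70 to 4.66) and in control 6 (6.46 CPM, others 3.65 to 4.61). Control 2 had 10.5 CPM of Polh (others 4.67 to 6.67).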

How the results depend on the processing

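No fold change of a called member changed sign under any alternative run. Leaving out each library in turn kept 17 of 20 lower and 5 of 5 higher calls in FLASH against control, 4 of 9 and 2 of 3 in CONV against control, and 5 of 8 and 0 of 3 in FLASH against CONV. Over these fits members lower in CONV against control numbered 4 to 18 and all genes called 1869 to 6493 (6493 without control 6). In FLASH against CONV members higher numbered 1 to 3, members lower 5 to 12 and all genes called 2171 to 3680. With library totals 1 member was higher in CONV against control, 2 were higher and 31 lower in FLASH against control, and 0 were higher in FLASH against CONV. All genes called in these comparisons were then 3755, 7931 and 3727, against 3615, 6135 and 3217 with TMM. Keeping genes with at least 1 count left 1 member higher and 5 lower in FLASH against CONV, the DESeq2 test gave 5 higher, and the length and GC offset gave 13 lower, 7 of them shared with the 8 above. Those fits called 2212, 3910 and 3877 genes in all. The cause was not tested.

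Most same-numbered libraries did not deviate together (correlations from -0.27 to 0.61 for CONV and control, -0.27 to 0.23 for FLASH and control, -0.20 to 0.09 for FLASH and CONV), and the best match was the own number for 1 of 4, 1 of 5 and 0 of 4 pairs. The exceptions were CONV 6 with control 6 (0.61) and, more weakly, FLASH 4 with control 4 (0.23). A replicate block over the libraries with a shared number called 2 members lower in CONV against control, 1 higher and 7 lower in FLASH against control, and 1 higher and 4 lower in FLASH against CONV, with 1476, 2212 and 2030 genes called in all. The same libraries without the block, a fit added after seeing the data, called 4 members higher and 16 lower in FLASH against control, so that Polk, Ercc3, Xpa and 9 lower members lost their call there with the block and not with the smaller set of libraries. It called 2 members lower in CONV against control and 1 higher and 5 lower in FLASH against CONV, with 3860, 1087 and 2874 genes called in all in FLASH against control, CONV against control and FLASH against CONV.

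Depth limits the rarest members most: Rad51c rested on 61 estimated counts in FLASH, 138 in CONV and 225 in controls.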
